A study of Mus musculus with 4 samples.

Results

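In MERGE-seq, neurons that project to several brain regions can be read out from the barcodes they carry. 5 rAAV2-retro viruses, each expressing EGFP and a barcode of its own, are injected into 5 target regions, travel back along the axons and label the cell bodies, whose transcriptome and barcodes are then sequenced from the same droplet. The neurons described here were those of the ventromedial prefrontal cortex (vmPFC) with a valid basolateral amygdala (BLA) barcode and, in addition, a valid agranular insular cortex (AI) barcode, a valid dorsomedial striatum (DMS) barcode or both, but no valid barcode of the mediodorsal thalamus (MD) or the lateral hypothalamus (LH). They were selected on their barcode UMI counts (a UMI marks an original molecule): more than 35 UMIs for BLA, together with more than 28 for AI or more than 101 for DMS, at most 114 for MD and at most 103 for LH. 64 of the 8210 annotated excitatory neurons met this rule. They made up 64 of the 163 neurons with a valid BLA barcode. 60 neurons had BLA as their only valid barcode (BLA-only), and the remaining 39 had MD or LH valid as well.

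Male C57BL/6 mice, 8 weeks old, received the 5 viruses, each in its own region, and were used 6 weeks later. None of the libraries was from mice without virus. The 3 unsorted libraries, numbered 1 to 3, each came from a single mouse, and the FAC-sorted library held EGFP+ cells pooled from 3 other mice. The sorted library therefore counts as a single sample in every comparison. Which cells take up a virus depends on the injection site and on the tropism of the serotype, so the neurons counted here are those that were labelled, not all that project. The subtype of each neuron was the deposited annotation, which was not checked against marker genes here. 0 of the 64 neurons, and 1 of the 60 BLA-only neurons, had a cell barcode that was also listed in another library.

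Pyramidal neurons of the vmPFC are classed by the targets of their axons. Intratelencephalic neurons, found in layer 2/3, layer 5 and part of layer 6, send axons to other cortical areas, the striatum and the amygdala, often with several branches of the same axon. Neurons that project to the thalamus or the hypothalamus lie mainly in layers 5 and 6. AI, DMS and BLA are thus targets of the first class, and MD and LH targets of the others. The division is not strict, since the paper reports neurons that project to DMS and also to MD or LH. The BLA holds glutamatergic neurons that take part in fear and reward learning, the AI is an insular area that receives visceral and taste input, and the DMS is a part of the striatum engaged in goal-directed action.

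The barcodes that define these neurons are 15 bases long. They are printed 5′ to 3′ in lower case, with capitals at the positions where a barcode differs from that of BLA, since a read of AI or DMS taken for BLA would create the pattern.
BLA: aagacgccgtcgcaa
AI: CTgCACcGACGCATT
DMS: GaAGGCAcAGACTTT
MD: GTTGGCTGCAATcCa
LH: TaTTcgGAgGACGaC
The AI, DMS and MD barcodes each differed from the BLA barcode at 13 of 15 positions, and the LH barcode at 10. Reads were accepted with up to 2 mismatches, and whether misread barcodes add to the pattern was not tested. In the 64 neurons 97.5% of BLA reads, 97.7% of AI reads and 98.0% of DMS reads matched without a mismatch. When reads with a mismatch were left out, 61 neurons had the pattern instead of 64.

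The 64 neurons fell into 3 patterns. BLA plus AI was found in 11 neurons, BLA plus DMS in 26 and BLA plus AI plus DMS in 27. Unsorted mouse 1 contributed 5 neurons, mouse 2 contributed 12, mouse 3 contributed 23, and the FAC-sorted library contributed 24. The unsorted mice thus held 13.3 ± 9.07 such neurons (SD, n = 3), a spread that was wide against the mean. BLA-only neurons varied less, with 17, 13 and 14 in the unsorted mice (14.7 ± 2.08, SD, n = 3) and 16 after FAC sorting. The pattern with all 3 barcodes was unevenly spread, with 1 neuron in mouse 1, 2 in mouse 2, 12 in mouse 3 and 12 in the FAC-sorted library. BLA plus DMS had 3, 7, 5 and 11 neurons in the same order. BLA plus AI had 1, 3, 6 and 1. The authors had removed cells with unusually high summed barcode UMIs. Among neurons with AI and DMS but without BLA, MD or LH, the highest sum left differed between libraries. It was 401 UMIs in mouse 1, 485 in mouse 2, 527 in mouse 3 and 841 in the FAC-sorted library. Neurons with all 3 barcodes had a median sum of 465 UMIs (303 to 825). The part of this removal in the uneven counts was not tested. The libraries also differed in projectome depth. Mouse 1 had 2542 barcode reads per listed cell, mouse 2 had 4115, mouse 3 had 4544 and the FAC-sorted library had 14639. With the reads of every library thinned to the depth of mouse 1, 5 neurons had the pattern in mouse 1, 4 in mouse 2, 11 in mouse 3 and 3 in the FAC-sorted library, 23 in all. This thinning matched reads per listed cell, not per neuron. Mouse 1 had 2440 annotated excitatory neurons among 8042 listed cells, mouse 2 had 2146 among 7439 and mouse 3 had 2119 among 7239. The FAC-sorted library had 1505 among 2068, so its count of 3 cannot be compared with the others at equal depth per neuron. The unsorted mice, with similar proportions, had 5, 12 and 23 neurons before thinning and 5, 4 and 11 after it. The removal of cells with high barcode sums was not redone on the thinned reads. The part of sequencing depth in the uneven counts was not tested further.

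Among neurons with BLA valid and MD and LH not valid, the share that also had AI or DMS was 22.7% in mouse 1 (5 of 22, 95% exact Clopper-Pearson interval 7.82 to 45.4), 48.0% in mouse 2 (12 of 25, 27.8 to 68.7), 62.2% in mouse 3 (23 of 37, 44.8 to 77.5) and 60.0% in the FAC-sorted library (24 of 40, 43.3 to 75.1). The unsorted mice averaged 44.3% ± 20.0 (SD, n = 3), and the sorted library lay within their range. All intervals cover counting error only. The part of the removal of cells with high barcode sums in these shares was not tested. By subtype and over all libraries the share was 63.3% in L5-S100b (38 of 60), 42.9% in L6-Npy (12 of 28), 71.4% in L2/3-Rorb (10 of 14) and 25.0% in L2/3-Calb1 (4 of 16). The libraries contributed unequally to these pooled shares, and the order of the subtypes was not the same in each. In mice 1 to 3 and the FAC-sorted library the L5-S100b share was 33.3%, 71.4%, 60.0% and 76.5%, and the L6-Npy share was 12.5%, 0%, 100% and 45.5%, with 3 to 11 L6-Npy neurons in each. Without mouse 3 the L6-Npy share was 27.3% (6 of 22). The pooled intervals of L2/3-Rorb (41.9 to 91.6) and L2/3-Calb1 (7.27 to 52.4) overlapped.

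BLA labelling can also be read from the other side. Among neurons without MD or LH, BLA was valid in 0.965% of those with neither AI nor DMS (60 of 6220), in 4.78% of those with AI alone (11 of 230), in 4.19% of those with DMS alone (26 of 620) and in 8.11% of those with AI and DMS (27 of 333). Mouse 3 held 6 of the 11 neurons with AI alone: that share was 1.37%, 5.36% and 11.5% in mice 1 to 3 and 2.04% after FAC sorting, and 2.81% without mouse 3 (5 of 178). Subtypes differ in how often they are labelled at all, so the same shares were taken within L5-S100b. There BLA was valid in 4.61% of neurons with neither AI nor DMS (22 of 477, 2.91 to 6.90), 5.88% with AI alone (5 of 85, 1.94 to 13.2), 6.37% with DMS alone (13 of 204, 3.44 to 10.7) and 12.7% with both (20 of 157, 7.96 to 19.0). These intervals pool neurons of unlike libraries, cover counting error only and are no test between the groups. The L5-S100b share with AI alone was 3.08% without mouse 3 (2 of 65) and 8.93% without mouse 1 (5 of 56). The share with AI and DMS was 4.35%, 6.45% and 20.0% in mice 1 to 3 (10.3% ± 8.49, SD, n = 3), with 13.8% after FAC sorting. The share with neither was 3.11%, 3.92% and 8.70% (5.24% ± 3.02, SD, n = 3), with 4.44% after sorting. In L5-S100b the share with AI and DMS was higher in 4 of 4 libraries. In L6-Npy it was 4.26% (4 of 94) against 2.44% with neither (16 of 656). In layer 2/3 it was 4.48% (3 of 67) against 2.94% (16 of 544). In mice 1 and 2 the share with AI and DMS was 0% in L6-Npy (of 8 and 23) and in layer 2/3 (of 8 and 13), below that with neither. In mouse 3 and the FAC-sorted library it was above that with neither in both. These shares follow from the thresholds that chose the neurons and were not tested. A UMI found with several barcodes counts for each of them, so the barcode counts are not independent of each other.

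The most common subtype was L5-S100b, a layer 5 subtype, with 38 of the 64 neurons (59.4%, 46.4 to 71.5). L6-Npy, a layer 6 subtype, held 12 neurons (18.8%, 10.1 to 30.5). The upper-layer subtypes together held 14 (21.9%, 12.5 to 34.0), of which 10 were L2/3-Rorb and 4 L2/3-Calb1. 0 of 64 neurons were L6-Syt6, L5-Bcl6 or L5-Htr2c, which for each allows a share of up to 4.69%. L5-Bcl6 held 3.29% and L5-Htr2c 3.90% of all annotated excitatory neurons. Both lie under that limit, so a share lower than overall cannot be read from their counts of 0. The overall shares were 11.6% for L5-S100b, 12.6% for L6-Npy and 9.94% for layer 2/3. L6-Syt6 held 4819 of the 8210 annotated excitatory neurons (58.7%), a share of the cells recovered after dissociation, sorted ones included, and not of the tissue. The rule leaves out neurons with valid MD or LH, the main targets of L6-Syt6 in the paper. Of the 39 neurons that had BLA together with MD or LH, 20 were L6-Syt6. All 39 came from the FAC-sorted library, and all 39 had AI and DMS valid too: 17 had MD in addition, 2 had LH and 20 had both. Whether the removal of cells with high barcode sums plays a part in this was not tested.

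The patterns differed in subtype. In BLA plus AI plus DMS, 20 of 27 neurons were L5-S100b, 4 were L6-Npy, 3 were L2/3-Rorb and 0 were L2/3-Calb1. BLA plus DMS had 13 L5-S100b, 7 L6-Npy, 4 L2/3-Rorb and 2 L2/3-Calb1 neurons of 26. BLA plus AI had 5 L5-S100b, 1 L6-Npy, 3 L2/3-Rorb and 2 L2/3-Calb1 neurons of 11. These differences in number rest on few neurons of unequal libraries and were not tested.

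L5-S100b made up more of the BLA plus AI or DMS neurons than of the BLA-only neurons in 3 of 4 libraries. The share was 60.0% against 35.3% in mouse 1, 83.3% against 30.8% in mouse 2 and 54.2% against 25.0% in the FAC-sorted library, whereas in mouse 3 it was 52.2% against 57.1%. The mean difference over the 4 libraries was 25.4 percentage points (SD 23.6), and it did not pass the two-sided exact sign-flip permutation test (p = 0.25, Benjamini-Hochberg adjusted p = 0.5 over 10 tests). With 4 libraries there are 16 sign patterns and the smallest p is 2 of 16, or 0.13, so no difference here was able to reach 0.05. Where a library showed no difference at all, the smallest p is larger. The difference was 16.3 percentage points without mouse 2, 10.4 with thresholds taken from non-neuronal cells, and 8.48 without the neurons whose transcriptome UMIs exceeded the 90th percentile of their library (the neurons of highest RNA depth). The cause of these changes was not tested.

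L6-Npy made up less of the BLA plus AI or DMS neurons in 3 of 4 libraries. It held 20.0% against 41.2% in mouse 1, 0% against 23.1% in mouse 2 and 20.8% against 37.5% in the FAC-sorted library, but 26.1% against 0% in mouse 3. Mouse 3 was therefore the exception for L5-S100b and for L6-Npy alike. The mean difference was -8.71 percentage points (SD 23.4, exact p = 0.625, adjusted p = 0.781). It was -4.55 without mouse 1, -3.92 without mouse 2 and -20.3 without mouse 3, and it turned positive under 4 alternatives, up to 10.0 with UMIs of at least 2 reads. Layer 2/3 neurons held 20.0% against 23.5% in mouse 1, 16.7% against 46.2% in mouse 2, 21.7% against 14.3% in mouse 3 and 25.0% in each group in the FAC-sorted library (mean difference -6.39 percentage points, SD 16.1, exact p = 0.75, adjusted p = 0.833). This difference turned to 1.31 without mouse 2, to 0.736 with the non-neuronal thresholds and to 2.51 without the neurons of highest RNA depth. L6-Syt6 had 0 neurons with BLA plus AI or DMS, against 3 of 60 BLA-only neurons, 2 of them in mouse 3 and 1 in the FAC-sorted library (mean difference -5.13 percentage points, SD 6.78, exact p = 0.5, adjusted p = 0.781). With no difference in mice 1 and 2, that exact p was the smallest possible. The mean difference for L6-Syt6 was -2.08 without mouse 3 and 2.80 with MD or LH allowed. L5-Bcl6 likewise had 0 of 64 neurons with BLA plus AI or DMS, against 3 of 60 BLA-only neurons, which was not tested. Within layer 2/3, 10 of 14 BLA plus AI or DMS neurons were L2/3-Rorb, while 12 of 16 BLA-only neurons were L2/3-Calb1. This split was seen after the values were known and was not tested.

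The same 64 neurons were also set beside neurons that had AI and DMS but not BLA, MD or LH. There were 306 such neurons, 137 of them L5-S100b (44.8%), 90 L6-Npy (29.4%) and 64 in layer 2/3 (20.9%), of which 61 were L2/3-Rorb. Of the 64, 27 had both AI and DMS valid, so the comparison mixes the number of targets with the presence of BLA. L5-S100b held 20 of those 27, 80 of 219 AI-only neurons and 191 of 594 DMS-only neurons. Against the 306 neurons, the L5-S100b share of the BLA plus AI or DMS neurons was higher in 4 of 4 libraries. The difference was 5.00 percentage points in mouse 1, 40.7 in mouse 2, 16.5 in mouse 3 and 2.62 in the FAC-sorted library. In mouse 1 it was 3 of 5 neurons against 22 of 40, and in the FAC-sorted library 13 of 24 against 50 of 97. A single neuron decides the sign in each of these libraries. The mean difference of 16.2 percentage points (SD 17.4) gave p = 0.13 in the exact sign-flip permutation test, the smallest that 4 libraries allow, and an adjusted p of 0.5. It was 8.05 percentage points without mouse 2, 9.07 with shared UMIs (those found with several barcodes of a neuron) counted only for the barcode with the most reads, 5.72 with the non-neuronal thresholds, and 2.25 without the neurons of highest RNA depth. L6-Npy was equal in mouse 1 and differed by -33.8 percentage points in mouse 2, -7.58 in mouse 3 and -4.94 in the FAC-sorted library (mean difference -11.6 percentage points, SD 15.2, exact p = 0.25, adjusted p = 0.5). With no difference in mouse 1, that exact p was the smallest possible. Without mouse 2 the mean difference was -4.17 percentage points. The layer 2/3 share differed by 0.265 percentage points on average (SD 5.86, exact p = 1, adjusted p = 1), with 1 library higher and 2 lower. It turned negative under 6 alternatives and was -2.48 without the FAC-sorted library.

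Transcriptome depth was compared within libraries, since sorted and unsorted cells differ in it. A neuron with more RNA can pass more thresholds, so depth may not be independent of the rule, which was not tested. Over all libraries the median was 28545 transcriptome UMIs (lowest 12846, highest 42023) and 6537 detected genes, against 23643 UMIs (8117 to 42954) and 5985 genes in BLA-only neurons. In mouse 1 the medians were 30279 UMIs against 20114, in mouse 2 28044 against 21937, in mouse 3 24245 against 24471 and in the FAC-sorted library 30586 against 27963. The BLA plus AI or DMS median was thus higher in 3 of 4 libraries, with a mean log2 difference of 0.27 (SD 0.26, exact p = 0.25, adjusted p = 0.5). The median of all excitatory neurons was 20882 UMIs in mouse 1, 21690 in mouse 2, 22641 in mouse 3 and 31436 in the FAC-sorted library, and that of the neurons with AI and DMS but not BLA was 22877, 22755, 23109 and 33486. The BLA plus AI or DMS median therefore lay above both in the 3 unsorted mice and below both in the FAC-sorted library. The median number of detected genes was higher in 4 of 4 libraries, but by 0.10 on the log2 scale on average (SD 0.10, exact p = 0.13, the smallest possible, adjusted p = 0.5), and by 0.0011 in mouse 3. It was 0.056 without mouse 1, 0.037 among L5-S100b neurons alone, 0.020 without the neurons of highest RNA depth, 0.064 with UMIs of at least 2 reads and 0.033 with UMIs found with several barcodes left out. Among L5-S100b neurons alone, the mean log2 difference in transcriptome UMIs was 0.15. It was 0.16 without mouse 1, over all subtypes, and 0.064 without the neurons of highest RNA depth.

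Neurons above the 90th percentile of RNA depth of their library, where droplets with a pair of cells would also lie, made up 21.9% of the BLA plus AI or DMS neurons (14 of 64), 8.33% of the BLA-only neurons (5 of 60) and 18.0% of the neurons with AI and DMS but not BLA. Without them 50 neurons had the pattern. The median mitochondrial share of the transcriptome UMIs was higher in 2 libraries and lower in 2. It was 8.25% against 7.85% in mouse 1, 8.62% against 7.39% in mouse 2, 7.49% against 7.51% in mouse 3 and 4.46% against 4.85% in the FAC-sorted library (mean difference 0.305 percentage points, SD 0.700, exact p = 0.625, adjusted p = 0.781). It turned to -0.0044 without mouse 2, -0.170 with the non-neuronal thresholds and -0.310 pooled over neurons.

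The counts that chose the neurons are given here as a description. BLA counts ran from 36 to 333 with a median of 74.5 UMIs, and from 36 to 189 with a median of 66.5 in BLA-only neurons. By library the BLA median was 49 UMIs in mouse 1, 49 in mouse 2, 77 in mouse 3 and 86.5 in the FAC-sorted library. The corresponding values in BLA-only neurons were 57, 72, 73 and 58.5. The DMS median was 137.5 UMIs (37 to 521) against 55 (23 to 101) in BLA-only neurons, and the AI median was 30 (14 to 106) against 15 (5 to 27). Barcodes that were not valid were still counted: MD had a median of 58 UMIs and LH of 40.5 in the BLA plus AI or DMS neurons, against 26.5 and 21 in the BLA-only neurons. No BLA plus AI or DMS neuron was free of any of the 5 barcodes, the lowest counts being 14 for AI, 37 for DMS, 11 for MD and 16 for LH.

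BLA was less often the most abundant barcode than DMS. Of the 64 neurons, 45 had the most UMIs from DMS, 18 from BLA and 1 from AI. DMS also led in 5 of 11 BLA plus AI neurons and in 21 of 60 BLA-only neurons, where DMS was not valid. BLA took a median of 23.8% of the UMIs of all 5 barcodes (5.58 to 49.9), against 36.2% in BLA-only neurons (19.9 to 54.4) and 3.85% in neurons with AI and DMS but not BLA (1.16 to 7.51). Relative to each barcode's threshold, BLA led in 39 neurons, DMS in 20 and AI in 5. BLA plus AI plus DMS neurons had the widest range, from a BLA share of 5.58% in an L2/3-Rorb neuron with 46 BLA and 521 DMS UMIs to 49.9% in an L2/3-Rorb neuron with 333 BLA and 134 DMS UMIs, both in the FAC-sorted library. The highest BLA count, 333 UMIs, was reached by 2 neurons of that library, the second being an L5-S100b neuron with 87 AI and 138 DMS UMIs. The lowest, 36 UMIs, was that of an L5-S100b neuron of mouse 2 with 223 DMS UMIs.

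Many of these neurons lay near a threshold. The lowest valid counts were 36, 38 and 38 UMIs for BLA, 29, 29 and 29 for AI, and 102, 104 and 104 for DMS. Just outside, the highest BLA counts in neurons that otherwise met the rule were 35, 35 and 34, and the highest counts in BLA-only neurons were 27, 25 and 25 for AI and 101, 100 and 94 for DMS. AI lay within 1.5 times its threshold in 26 of the 38 neurons where it was valid, DMS in 30 of 53 and BLA in 20 of 64. 19 of the 64 neurons exceeded 1.5 times the threshold for BLA and for AI or DMS. On the other side, 48 of 60 BLA-only neurons had at least 50% of the threshold count of AI or DMS, and 23 had at least 75%. The groups therefore met at the thresholds without a gap. Non-neuronal cells, which should carry no barcode, had a BLA median of 0 UMIs, a 99th percentile of 3 and a maximum of 35 among 9822 cells. 0 of them had the pattern, which allows a share of up to 0.0305%, but such cells were also used to set the thresholds. 0 of 1420 inhibitory neurons had it, which allows up to 0.211%.

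UMIs that occur with several barcodes in the same neuron bear on these counts, because a UMI stands for a single molecule and the deposited tables count it once for each barcode it is found with. In the 64 neurons 33.5% of BLA UMIs (2138 of 6373), 32.9% of DMS UMIs (3355 of 10186) and 69.2% of AI UMIs (1505 of 2174) were shared with another of the 5 barcodes. The AI share was 59.2% in BLA plus AI neurons, 68.4% in neurons with all 3 barcodes and 78.1% in BLA plus DMS neurons. For BLA the share was 35.4% in mouse 1, 36.3% in mouse 2, 38.7% in mouse 3 and 28.8% in the FAC-sorted library (unsorted 36.8% ± 1.74, SD, n = 3). In BLA-only neurons it was 31.1%, 31.1%, 35.4% and 25.1% (unsorted 32.5% ± 2.47, SD, n = 3), lower in each library. The rule keeps AI and DMS low in BLA-only neurons, and a BLA UMI is shared only where another barcode is present. This difference is therefore not independent of the rule and was not tested. Among the 64, single neurons ranged from 20.5% to 82.6%, and the neuron with 82.6% was the L2/3-Rorb neuron with 521 DMS UMIs.

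Reads tell which barcode of a shared UMI was the frequent one. For BLA in the 64 neurons, 25.2% of UMIs were shared and had the most reads under BLA, with a median of 224 reads, while 7.33% were shared and had fewer reads under BLA than under another barcode, with a median of 1 read. In BLA-only neurons the corresponding shares were 28.5% and 1.62%. In neurons with AI and DMS but without BLA the picture was the opposite, with 1.10% of the few BLA UMIs holding the most reads and 84.2% fewer. BLA UMIs found with no other barcode had a median of 1 read in both BLA groups. 44.9% of BLA UMIs had at least 2 reads, and 96.5% of BLA reads fell in shared UMIs. The shares of AI and DMS UMIs varied with whether the barcode was valid. For AI, 17.6% of UMIs were shared with the most reads under AI and 41.3% with fewer in BLA plus AI neurons, and 10.6% and 56.5% in neurons with all 3 barcodes. In BLA plus DMS neurons, where AI lay at or under its threshold, these shares were 1.47% and 76.3%. For DMS they were 15.1% and 13.1% in BLA plus DMS neurons, 15.6% and 15.9% in neurons with all 3 barcodes, and 7.03% and 43.0% in BLA plus AI neurons, where DMS was not valid. Of the UMIs found with BLA and AI together (843), BLA had more reads in 75.8% and AI in 14.1%, with median reads of 145 and 1. Of those found with BLA and DMS together (1965), BLA had more reads in 74.5% and DMS in 22.8%, with median reads of 150 and 6. Of the UMIs shared with AI, BLA had more reads in 87.9% in BLA plus AI neurons (141 UMIs), 77.1% in BLA plus DMS neurons (245) and 71.3% in neurons with all 3 barcodes (457).

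When each shared UMI was counted only for the barcode that held most of its reads, and ties were dropped, 30 of the 64 neurons still had BLA with AI or DMS valid (46.9%, 34.3 to 59.8), 21 became BLA-only and 13 became DMS-only. By library 2 of 5, 7 of 12, 10 of 23 and 11 of 24 were left. The thresholds were unchanged. AI stayed valid in 9 of 38 neurons (23.7%, 11.4 to 40.2), DMS in 36 of 53 (67.9%, 53.7 to 80.1) and BLA in 51 of 64 (79.7%, 67.8 to 88.7). In the neurons where they were the only valid barcode, AI stayed valid in 193 of 219 (88.1%), DMS in 564 of 594 (94.9%) and BLA in 58 of 60 (96.7%). In the neurons with AI and DMS but not BLA, AI stayed valid in 127 of 306 (41.5%, 35.9 to 47.2) and DMS in 276 (90.2%, 86.3 to 93.3), so AI was lost from many neurons without BLA as well. Of the 11 BLA plus AI neurons 4 stayed and 7 became BLA-only. Of the 26 BLA plus DMS neurons 14 stayed, 7 became BLA-only and 5 DMS-only. Of the 27 neurons with all 3 barcodes, 2 kept all 3, 7 kept BLA plus DMS, 3 kept BLA plus AI, 7 became BLA-only and 8 DMS-only. The count of such neurons among all excitatory neurons was then 34, since 4 entered from other patterns, and that of BLA-only neurons was 79.

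The neurons with each outcome differed in their counts before the change. Those that became BLA-only had a median of 120 BLA, 109 DMS and 30 AI UMIs, with DMS between 58 and 134. Those that became DMS-only had 43 BLA UMIs (36 to 52), 223 DMS and 29 AI UMIs. Those that stayed had 72.5 BLA, 144 DMS and 33 AI UMIs, with BLA between 39 and 333. In the median neuron 92.9% of BLA UMIs were left. The median AI count went from 35 to 25 UMIs in BLA plus AI neurons and from 38 to 14 in neurons with all 3 barcodes, and from 20.5 to 4 in BLA plus DMS neurons, where AI had not been valid. The median DMS count went from 139.5 to 119 UMIs in BLA plus DMS neurons, from 187 to 152 in neurons with all 3 barcodes and from 81 to 43 in BLA plus AI neurons, where DMS had not been valid. The 30 that stayed comprised 18 L5-S100b, 6 L6-Npy, 3 L2/3-Rorb and 3 L2/3-Calb1 neurons, so that L5-S100b held 60.0% of them as against 59.4% of all 64. Of the 10 L2/3-Rorb neurons 3 stayed, and of the 4 L2/3-Calb1 neurons 3 did.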

How the data were processed

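Barcode UMI counts per cell were taken from the deposited tables, which the authors made with the deMULTIplex R package, modified to count UMIs for each projection barcode separately, with up to 2 mismatches. The deposited transcriptome counts (UMIs and detected genes), the percent of mitochondrial UMIs, the subtypes and the valid calls per neuron came from the authors' annotation, after Cell Ranger on mm10. Per the study's methods, cells whose summed barcode UMIs exceeded the 95th percentile had been removed, and thresholds came from a high percentile of negative control cells. These were non-neuronal cells and EGFP-negative cells of the FAC-sorted library, with the higher value taken. Doublets were not called here. The thresholds used were the highest counts that the annotation leaves uncalled; they matched it in every neuron (0 differing calls). 31 per-cell columns of the series tables were not used.

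UMIs were recounted from the deposited reads (20443286, 30613665 and 32895529 in the unsorted libraries, 30272582 in the FAC-sorted), in Python 3.11.15 with pandas 2.3.3, numpy 2.4.6 and pyarrow 21.0.0. The recount gave the deposited value except in 14740 of 123940 entries, where it gave 1 instead of 0. A UMI was shared if it occurred with more than 1 barcode of a cell. The steps were tested on simulated data.

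Groups were compared within each of the 4 libraries, and the mean of the differences was tested with a two-sided exact sign-flip permutation test (10 tests, Benjamini-Hochberg adjusted). Intervals are 95% exact Clopper-Pearson (scipy 1.17.1), and a count of 0 allows up to 3 counts. Named items are the 5 barcodes, the 7 subtypes and the valid patterns, with single neurons named only at the extremes of BLA or next to a threshold; the neurons with the lowest and highest BLA share were added after their values were seen. The neurons, groups and lists were chosen with earlier results of these data known. Gene expression and withheld items were not analysed here. Alternatives were exact matches, UMIs of at least 2 reads, shared UMIs counted only where most of their reads fell, other thresholds, thinned reads, removal of the neurons of highest RNA depth, MD or LH allowed, pooling of neurons, L5-S100b only for RNA depth and quality, and leaving out each library; leaving out shared UMIs, and leaving out each library for the shares of neurons with a valid barcode, were added after seeing the data.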

Additional observations from a re-analysis of the deposited data

How the results depend on the processing

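Of 220 recomputed values 170 kept their direction, or stayed within 1.5 times the count or within the SD of the unsorted mice, and the L5-S100b, transcriptome UMI and detected gene differences kept their sign under every alternative run, though not their size. With 4 libraries the test cannot pass 0.05, so this says nothing of their significance. The cause of the changes below was not tested.

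The number of BLA plus AI or DMS neurons (64) was 9 with UMIs of at least 2 reads, 34 with shared UMIs counted only where most of their reads fell, 20 with shared UMIs left out, 23 with thresholds multiplied by 1.5, 23 with thinned reads, 286 with thresholds from non-neuronal cells alone and 103 with MD or LH allowed. Leaving out a library gave 40 to 59, 41 without mouse 3 and 40 without the FAC-sorted library. Their share of BLA neurons (48.2%, mean of libraries) was 11.0%, 28.0%, 15.3%, 18.4%, 23.6% and 78.5% under the first 6 of these. The BLA share of barcode UMIs (23.3%, mean of library medians) was 30.1% with UMIs of at least 2 reads, 29.9% with shared UMIs counted once, 28.3% with the higher thresholds, 27.5% with thinned reads, 5.04% with the non-neuronal thresholds, 18.1% with MD or LH allowed and 28.2% without the neurons of highest RNA depth. The percent of BLA UMIs that were shared (34.8%) was 54.8% with UMIs of at least 2 reads, 41.4% with thinned reads, 53.1% with the non-neuronal thresholds, 38.7% with MD or LH allowed and 36.7% with exact matches, and 33.5% to 36.8% with a library left out; it has no value where shared UMIs are reassigned or left out. The 30 neurons left after reassignment became 2 with UMIs of at least 2 reads, 14 with the higher thresholds and 11 with thinned reads, and 19 to 28 with a library left out, 19 without the FAC-sorted library.

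Against BLA-only neurons, the L6-Npy difference (-8.71 percentage points) turned to 10.0 with UMIs of at least 2 reads, 8.23 with shared UMIs left out, 1.05 with the higher thresholds and 0.813 with thinned reads, and was -5.68 with exact matches, -4.52 with the non-neuronal thresholds, -1.61 without the neurons of highest RNA depth, -4.55 without mouse 1, -3.92 without mouse 2 and -20.3 without mouse 3. The layer 2/3 difference (-6.39) turned to 0.736 with the non-neuronal thresholds and 2.51 without the neurons of highest RNA depth, was -28.2 with the higher thresholds, -23.5 with shared UMIs left out, -21.9 with UMIs of at least 2 reads, -15.5 with thinned reads, -15.1 with exact matches and -2.48 with shared UMIs counted once, and ran from -11.0 to 1.31 with a library left out, positive without mouse 2. The L6-Syt6 difference (-5.13) turned to 2.80 with MD or LH allowed and was -0.491 with the non-neuronal thresholds, -3.22 with shared UMIs counted once and -2.08 without mouse 3. The mitochondrial difference (0.305) turned to -0.170 with the non-neuronal thresholds and -0.310 pooled over neurons, was 1.57 with the higher thresholds, 0.989 with shared UMIs left out and 0.074 with MD or LH allowed, and ran from -0.0044 to 0.538 with a library left out, negative without mouse 2. Against AI plus DMS without BLA, the layer 2/3 difference (0.265) turned to -14.6 with UMIs of at least 2 reads, -9.90 with shared UMIs left out, -15.4 with the higher thresholds, -4.35 with thinned reads, -5.34 with exact matches and -2.02 with MD or LH allowed, was 10.5 both with the non-neuronal thresholds and without the neurons of highest RNA depth, 7.68 with shared UMIs counted once and 0.960 pooled over neurons, and ran from -2.48 to 2.02 with a library left out, negative without the FAC-sorted library. The L5-S100b difference from BLA-only neurons (25.4) was 10.4 with the non-neuronal thresholds and 8.48 without the neurons of highest RNA depth, and ran from 16.3 (without mouse 2) to 35.5 with a library left out. That from AI plus DMS without BLA (16.2) was 5.72 and 2.25 under the same pair, 9.07 with shared UMIs counted once, 38.9 with UMIs of at least 2 reads, 34.4 with the higher thresholds and 26.6 with shared UMIs left out, and ran from 8.05 (without mouse 2) to 20.7. The L6-Npy difference from the latter (-11.6) was -21.1 with the non-neuronal thresholds and -19.7 with UMIs of at least 2 reads, and ran from -15.4 to -4.17 (without mouse 2). UMIs of at least 2 reads and left-out shared UMIs gave both groups neurons in 2 libraries, and the higher thresholds in 3.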
